A study of Mus musculus with 435 samples.

Results

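The genes described here are 40 mouse genes that copy DNA or that switch on as a cell enters S phase. They were taken by name from the 16459 genes with a value, and all 40 were found. Values were read in single cells of XY fetal gonads from mice of mixed background that carry the NR5A1-eGFP transgene, which marks the somatic cells of the early gonad. Gonads were digested with trypsin, cells positive for eGFP and negative for the dead-cell dye Draq7 were sorted by FACS, and the cells were captured on Fluidigm C1 chips and sequenced with the SMARTer and Nextera XT chemistry.

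The groups are 5 stages, namely E10.5 (1 capture, 59 cells after filtering), E11.5 (52 and 41 cells in 2 captures), E12.5 (30 and 37 cells), E13.5 (56 and 56 cells) and E16.5 (31 and 34 cells). All carry the same genotype. By label, E10.5 and E13.5 cells were sequenced to 25 M reads and all others to 10 M, and 1 capture, the first of E13.5, used a medium chip in place of a small chip. The labels do not give the number of embryos behind a capture. The capture is the replicate in every test below, so p-values measure the spread between captures, which may be technical. The single E10.5 capture has no replicate, and its spread is taken from the other stages.

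Of the 435 cells that the design text lists, 400 have values and 35 have none here. Of the 400, 3 with too few genes detected were left out and 2 nearly identical cells were averaged, which left 396. The read depth implied by the smallest steps of the values had a median of 7.83 to 8.1 M reads in the E10.5 and E13.5 captures and of 2.2 to 3.24 M reads in the other captures, and the median number of genes detected per cell ranged from 4904 to 6503. Depth can therefore not be told apart from stage unless the stages share a labelled depth. Cell names also carry a tag, of unstated meaning, that differs between E10.5 and E11.5 cells and is shared by E11.5 and E12.5 cells. Transcripts of eGFP were at 1 RPKM or more in 93.4% of cells, Nr5a1 in 78.03%, Wt1 in 83.1% and Gata4 in 67.7%. The second E12.5 capture stands apart: it held 12 of the 13 cells of a germ cell-like cluster, and the summed level of 8 germ cell markers was 103.3 RPKM there, against 0.083 to 22.1 RPKM in the other captures. Summed markers of mesonephric tubules were highest at E10.5 (22.3 RPKM, against 0.0045 to 10.52 RPKM elsewhere). Endothelial markers ranged from 7.52 to 64.1 RPKM, macrophage markers from 2.04 to 7.15 RPKM and erythroid markers from 0.337 to 23.8 RPKM across captures, and none of the markers with values (8 germ cell, 8 endothelial, 4 mesonephric, 3 macrophage and 2 erythroid) was at 0 in all cells.

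DNA is copied once in each division. Before S phase the loading factors Cdc6 and Cdt1 place the Mcm2 to Mcm7 helicase on replication origins, and Cdc45, the Gins proteins and Mcm10 then turn it on. Polymerase alpha with primase starts each strand, polymerases delta and epsilon extend it, the Pcna clamp, loaded by the Rfc complex, holds them on DNA, and Rpa covers the single strands. Fen1 and Lig1 join the lagging-strand fragments, ribonucleotide reductase, Tyms and Tk1 supply nucleotides, while Slbp handles histone mRNA, Chaf1a places new histones and Uhrf1 passes on DNA methylation. Many of these genes are known targets of E2F transcription factors, which the E cyclins help to release from the Rb proteins. In the fetal gonad, dividing cells of the coelomic epithelium give rise to the supporting cells and to part of the interstitium.

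Across single cells the 40 genes were correlated with each other. Within captures, the correlation of a gene with the mean log2(RPKM + 1) of the other 39 genes ranged from 0.26 for Pold1, the catalytic subunit of polymerase delta, to 0.74 for Rrm2, the regulated subunit of ribonucleotide reductase, with a median of 0.48 over all cells kept. For 7448 genes outside the list that reached 1 RPKM in at least 20% of cells, the correlation with the score of all 40 genes had a median of 0.08, a 95th percentile of 0.26 and a 99th percentile of 0.42. All 40 genes lay above that 95th percentile, and 28 lay above the 99th. Cells of a capture share a chip, a library preparation and a labelled depth, and centring within captures removes differences between capture means. Implied depth still varied between cells of a capture, from 2.51 to 11.25 M reads at E10.5. Cells also differ in how much RNA was caught: the score correlated at 0.54 with the number of genes detected in a cell and at 0.15 with implied depth. These correlations are descriptions across cells and carry no test.

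Among 780 pairs of the 40 genes the median correlation was 0.24, and 1 pair was below 0. The closest pairs were Rrm2 with Uhrf1, a reader of hemimethylated DNA, at 0.61, Rrm2 with Tyms, thymidylate synthase, at 0.60, and Rrm2 with Tk1, thymidine kinase, at 0.56. The 4 nucleotide supply genes had a median correlation with the other genes of 0.66, the highest of the 5 role groups. Origin licensing and helicase genes had 0.51 over the 13 of 14 that reached 20% of cells, polymerases, primase and joining enzymes 0.48, and the clamp, loader and Rpa genes 0.42. The entry and chromatin genes had 0.45 over 4 of 5. Gins3 and Ccne1, detected in 16.4% and 14.1% of cells, are the pair that did not reach that share.

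The genes differed in how closely they followed a list of 30 G2 and mitosis genes. That correlation was highest for Rrm2 (0.47), Rrm1 (0.44), Tk1 (0.43), Mcm10 (0.43), Rfc4 (0.41) and Uhrf1 (0.39). It was at or below 0.1 for 8 genes, namely Mcm4 (0.03), Mcm2 (0.03), Gins2 (0.04), Ccne1 (0.05), Cdc6 (0.06), Mcm6 (0.09), Pold1 (0.09) and Cdt1 (0.09). Of these 8, Mcm2, Mcm4, Mcm6, Gins2, Cdc6 and Cdt1 belong to origin licensing and helicase activation. Mcm6 and Cdc6 had correlations with the other 39 genes of 0.59 and 0.58, so they followed the list while hardly following the mitotic genes. The score itself correlated at 0.43 with the mean of the G2 and mitosis genes.

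**Figure D1:**
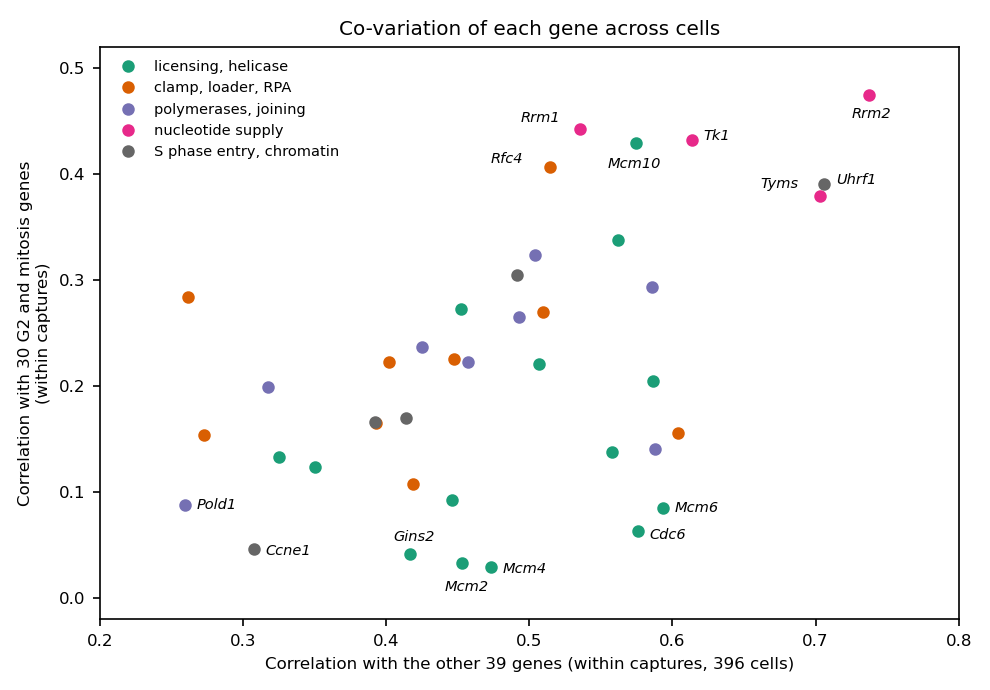
Each point is 1 of the 40 genes, with its within-capture correlation with the mean of the other 39 genes on the horizontal axis and with the mean of 30 G2 and mitosis genes on the vertical axis, over all cells kept, coloured by role. Rrm2 lies at the top right (0.74 and 0.47), and Mcm6 and Cdc6 lie at the lower right, with 0.59 and 0.58 against 0.09 and 0.06.

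The 10 genes outside the list that followed the score most closely were Zfp367 (0.66), Atad2 (0.62), Clspn (0.62), Gmnn (0.61), Fam111a (0.58), Exo1 (0.57), Brca1 (0.56), Nasp (0.55), Dtl (0.55) and Fbxo5 (0.55). Clspn is a replication checkpoint adaptor, Gmnn the inhibitor of Cdt1, Dtl the factor that directs Cdt1 to destruction, Nasp a histone chaperone, and Exo1 and Brca1 act in DNA repair. Fbxo5, an inhibitor of the anaphase-promoting complex, followed the G2 and mitosis genes more closely (0.62) than the score. At the other end, Kdm5b had the lowest correlation (-0.23), followed by Ypel3 (-0.16), Unc13a (-0.15), Maf (-0.15) and Trim17 (-0.15), a group of 5 that was picked after its values were seen.

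Of 41 other replication genes, 32 reached 20% of cells, and 26 of these lay above the 95th percentile of genes outside the list, with a median correlation of 0.42. Of the origin recognition subunits that reached 20% of cells, Orc6 did, at 0.49, and Orc2, Orc3, Orc4 and Orc5 did not, at 0.25, 0.10, 0.07 and 0.11. For S phase repair genes the count was 11 of 13 and for G2 and mitosis genes 20 of 29, led by Top2a (0.51) and Cdk1 (0.47). Of 22 E2F and Rb pathway genes 17 reached 20% of cells, and 3 of these passed that percentile, among them Tfdp1, the dimer partner of the E2F proteins, at 0.35. Of those in fewer cells, E2f8, E2f7, E2f1 and E2f2 also lay above it, at 0.50, 0.39, 0.32 and 0.26, and Rbl1 did not, at 0.17. They were detected in 18.7%, 14.9%, 12.6%, 3.5% and 17.9% of cells in that order. None of the 3 CDK inhibitors that reached 20% of cells passed the percentile, with Cdkn1b at 0.03 and Cdkn1c at -0.02.

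Because the genes vary together, their promoters were searched for 4 words of the E2F site, TTTCCCGC, TTTCGCGC, TTTGCCGC and TTTGGCGC, on both strands, from 250 bases before to 50 bases after the RefSeq start (GRCm38.p6). Of the 40 genes 32 have an entry, and 12 of these (37.5%) hold at least 1 word. Ccne2, Gins1, Gins2, Gins4, Mcm4, Pole, Prim2 and Rfc2 have none. Among all 27025 genes with an entry 704 (2.605%) hold a word, and among the 12120 that also have values here 495 (4.08%) do. The 12 are Cdc6, Cdt1, Gins3, Lig1, Mcm3, Mcm5, Mcm6, Mcm7, Pola1, Pold1, Rfc3 and Uhrf1, and in 8 of them a word lies before the start. Their correlations with the other genes had a median of 0.53, against 0.50 for the 20 genes with an entry and no word. A match of letters is a description and not a measured binding site.

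The stretches of 3 of these promoters are shown because they hold the words upstream of the start, with the words in capitals and the gene's strand read 5′ to 3′. In Mcm5 and Mcm6, TTTCGCGC and TTTGGCGC share bases on opposite strands, and Mcm6 holds a further TTTGGCGC. The Mcm5 stretch is chr8:75109334-75109413 on the plus strand, the Mcm6 stretch chr1:128359731-128359830 on the minus strand and the Pola1 stretch chrX:93632241-93632320 on the minus strand.
Mcm5: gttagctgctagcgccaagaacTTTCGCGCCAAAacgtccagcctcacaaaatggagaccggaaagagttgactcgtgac
Mcm6: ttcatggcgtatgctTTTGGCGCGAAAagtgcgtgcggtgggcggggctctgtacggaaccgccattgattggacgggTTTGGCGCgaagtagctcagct
Pola1: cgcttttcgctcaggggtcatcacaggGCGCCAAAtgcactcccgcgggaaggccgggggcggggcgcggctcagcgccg

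The mean log2(RPKM + 1) of the 40 genes in a cell is used below as an S phase score. It ran from 0.41 to 5.94 over all cells, and 87.9% of its variance lay between cells of the same capture and 12.1% between captures. Its median was 3.59 in the E10.5 capture, 1.82 and 1.79 in the E11.5 pair, 1.72 and 3.21 in the E12.5 pair, 2.604 and 2.22 in the E13.5 pair and 1.94 and 1.74 in the E16.5 pair. The E10.5 median thus stood above all 8 others, the captures of E11.5 and of E16.5 lay close together, and those of E12.5 lay far apart. Every capture held both low and high cells: the lowest score of a capture was between 0.41 and 1.08, and the highest between 4.603 and 5.94.

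Cells with nearly the whole list detected were most frequent at E10.5. At least 30 of the 40 genes reached 1 RPKM in 29 of the 59 E10.5 cells (49.2%, Wilson 95% interval 36.8 to 61.6%). The E11.5 captures held 4 such cells of 52 (7.69%, 3.03 to 18.2%) and 6 of 41 (14.6%, 6.88 to 28.4%), those of E12.5 held 5 of 30 and 9 of 37, those of E13.5 held 14 and 11 of 56 each, and those of E16.5 held 7 of 31 and 4 of 34. The most complete cells, 2 in number, had 39 genes, and no cell had all 40. Few genes, at most 10, were found by 3 of the 59 E10.5 cells and by 13 of the 34 cells in the second E16.5 capture, the lowest and highest such shares (5.08% and 38.2%). These intervals count cells only and do not cover the variation between captures.

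With each cell thinned to 1.5 M implied reads, a step added after seeing the data that left out 0 to 4 shallower cells of a capture, the E10.5 median was still the highest. The reads thinned were approximated from RPKM, gene length and implied depth, because counts could not be recovered. Whether depth accounts for the E10.5 median was not tested. The thinned medians, from a single random draw of reads, were 3.57 in the E10.5 capture, 1.84 and 1.76 in the E11.5 pair, 1.69 and 3.27 in the E12.5 pair, 2.61 and 2.21 in the E13.5 pair, and 1.96 and 1.90 in the E16.5 pair. The E13.5 captures, which have the same labelled depth as E10.5, were below it too. The number of genes detected moves with the score. In cells of the middle range of genes detected (between the quartiles over all cells), the E10.5 median was 3.22 in 20 cells, and the second E12.5 capture (3.41, 19 cells) and the second E16.5 capture (3.25, 14 cells) stood above it, while the other 6 captures lay between 1.76 and 2.43.

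**Figure D2:**
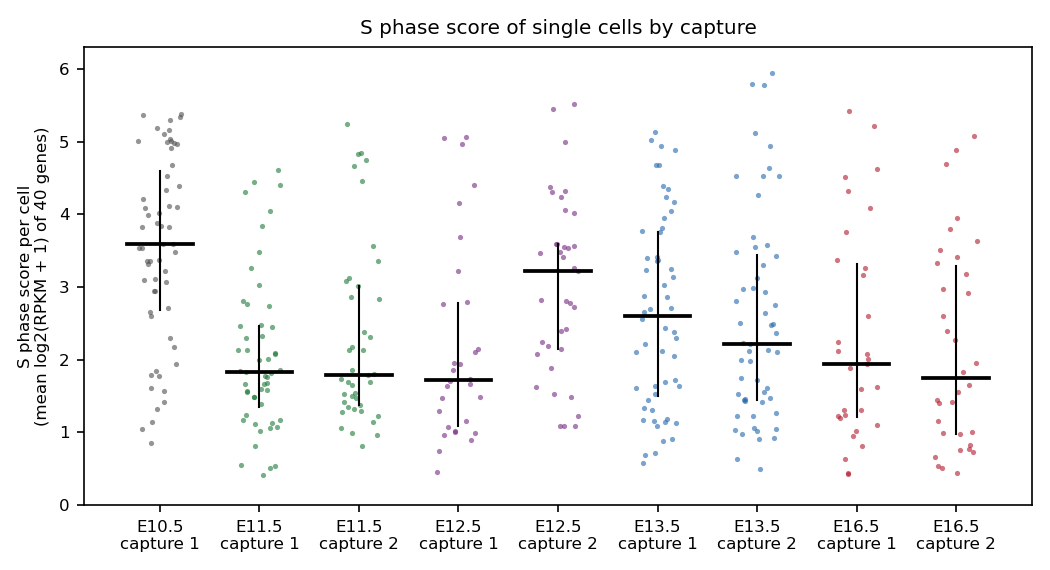
Points are single cells, with the S phase score (mean log2(RPKM + 1) of the 40 genes) on the vertical axis, and 9 captures on the horizontal axis. The thick line is the median and the thin line spans the quartiles; the E10.5 median of 3.59 is the highest, followed by 3.21 in the second E12.5 capture.

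In the capture means that follow, fewer cells in S phase and less RNA per cell cannot be told apart. Origin licensing and helicase genes were led by Mcm4 and Mcm7, subunits of the helicase ring. Mcm4 (chr16:15623897-15637400, minus strand) had a mean of 185 RPKM in the E10.5 capture, 118.2 and 104.2 in the E11.5 pair, 88.97 and 144 in the E12.5 pair, 106.99 and 139.5 in the E13.5 pair, and 89.8 and 80.7 in the E16.5 pair. Mcm7 had 67.9 RPKM in the E10.5 capture, 59.5 and 51.5 in the E11.5 pair, 61.2 and 108.97 in the E12.5 pair, 41.999 and 63.5 in the E13.5 pair, and 47.7 and 39.8 in the E16.5 pair. Mcm4 was highest at E10.5 and lowest in the second E16.5 capture, and Mcm7 was highest in the second E12.5 capture.

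Cdc6 (chr11:98907801-98923940, plus strand), which loads the helicase, varied widely between captures. Its mean was 17.7 RPKM in the E10.5 capture, 1.60 and 4.16 in the E11.5 pair, 6.22 and 35.8 in the E12.5 pair, 14.7 and 11.6 in the E13.5 pair, and 6.67 and 7.63 in the E16.5 pair, and it was detected in 24.5% of cells. Cdc45, part of the active helicase, had 55.2 RPKM in the E10.5 capture, 18.6 and 7.27 in the E11.5 pair, 12.3 and 38.9 in the E12.5 pair, 27.1 and 24.2 in the E13.5 pair, and 19.5 and 7.43 in the E16.5 pair. Both were higher in the second E12.5 capture than in the first, by more than they differed between the E13.5 captures. Over all 14 genes the median level was 41.7 RPKM at E10.5 and between 19.6 and 37.3 RPKM in the other captures.

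Of the clamp, loader and single-strand binding genes, Rfc2 and Rfc4, small subunits of the clamp loader, had the highest levels. Rfc2 had 107.3 RPKM in the E10.5 capture, 86.3 and 90.3 in the E11.5 pair, 75.7 and 96.7 in the E12.5 pair, 119.7 and 69.6 in the E13.5 pair, and 63.4 and 102.5 in the E16.5 pair. Rfc4 had 77.5 RPKM in the E10.5 capture, 47.8 and 52.2 in the E11.5 pair, 62.1 and 83.4 in the E12.5 pair, 96.3 and 75.3 in the E13.5 pair, and 84.96 and 39.3 in the E16.5 pair. Both E11.5 captures lay below E10.5 for either gene, and the E13.5 and E16.5 captures of each overlapped. Pcna, the clamp, had 52.8 RPKM in the E10.5 capture, 26.9 and 23.6 in the E11.5 pair, 21.6 and 53.2 in the E12.5 pair, 51.4 and 37.5 in the E13.5 pair, and 23.1 and 29.4 in the E16.5 pair. Rfc1, the large loader subunit, was found in 84.8% of cells, the widest detection of the 40 genes, and followed the others weakly (0.27).

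Polymerases, primase and joining enzymes had median levels between 4.27 and 19.9 RPKM. Lig1, the DNA ligase of replication, and Prim1, the catalytic primase subunit, had the highest means over the 9 captures (27.2 and 25.9 RPKM), with 29.3 and 27.8 RPKM at E10.5. Lig1 ranged from 12.8 to 36.7 RPKM and Prim1 from 7.88 to 38.3 RPKM over the other 8 captures. Fen1 (chr19:10199132-10204169, minus strand), the flap nuclease, had 32.5 RPKM in the E10.5 capture, 22.1 and 10.1 in the E11.5 pair, 29.8 and 10.1 in the E12.5 pair, 20.05 and 14.3 in the E13.5 pair, and 49.6 and 35.1 in the E16.5 pair. Both of its E16.5 captures stood above the other 7 captures. Pold1, Pole and Pola2 had means over captures of 4.29, 5.62 and 5.75 RPKM, the lowest of the 40 genes.

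Nucleotide supply genes were the highest role group. Rrm2 (chr12:24708241-24714146, plus strand) had 276 RPKM in the E10.5 capture, 96.7 and 72.7 in the E11.5 pair, 54.2 and 138 in the E12.5 pair, 146 and 111.2 in the E13.5 pair, and 53.1 and 44.9 in the E16.5 pair. It reached 1 RPKM in 48 of the 59 E10.5 cells. The E11.5 captures held 21 such cells of 52 and 18 of 41, and those of E16.5 held 11 of 31 and 12 of 34. Its partner Rrm1 had 132 RPKM in the E10.5 capture, 64.5 and 95.5 in the E11.5 pair, 91.7 and 155 in the E12.5 pair, 68.5 and 79.3 in the E13.5 pair, and 61.2 and 135 in the E16.5 pair. Rrm2 was thus highest at E10.5 and lowest at E16.5, whereas Rrm1 had its highest value in the second E12.5 capture and a wide gap between the E16.5 captures.

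Of the entry and chromatin genes, Uhrf1 had 92.4 RPKM in the E10.5 capture, 45.4 and 40.2 in the E11.5 pair, 45.7 and 76.1 in the E12.5 pair, 75.8 and 50.1 in the E13.5 pair, and 59.7 and 48.4 in the E16.5 pair. Slbp, the binder of histone mRNA ends, stayed between 33.02 and 50.8 RPKM in all captures. Ccne1, cyclin E1, had 11.2 RPKM in the E10.5 capture, 8.83 and 9.51 in the E11.5 pair, 6.82 and 26.8 in the E12.5 pair, 2.16 and 2.21 in the E13.5 pair, and 6.16 and 2.58 in the E16.5 pair. It was detected in 2 of 30 and 7 of 37 cells of the E12.5 pair and in 5 and 4 of 56 cells each of the E13.5 pair. Uhrf1 was highest at E10.5 and Ccne1 in the second E12.5 capture.

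At the median depth of the shallowest capture, 1 RPKM stood for 2.502 to 24.6 reads of these genes (median 9.39). Because these libraries do not mark strand, reads shared with a gene on the opposite strand cannot be told apart: Fen1, Chaf1a, Gins2, Rfc2, Rfc4, Rfc5, Mcm7, Ccne2 and Tk1 share exon bases with another gene that has values here, from 64 bases of Mcm7 with Cops6 to 4648 bases of Chaf1a with Ubxn6. Cdc45, Lig1, Pole and Slbp share exon bases with opposite-strand genes that have no values here, and so does Fen1, with 1909 bases of Gm10143. Rpa1 shares 44 bases with a miRNA gene on its own strand. Pcna and Tyms have annotated pseudogene copies that have no values here.

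**Figure D3:**
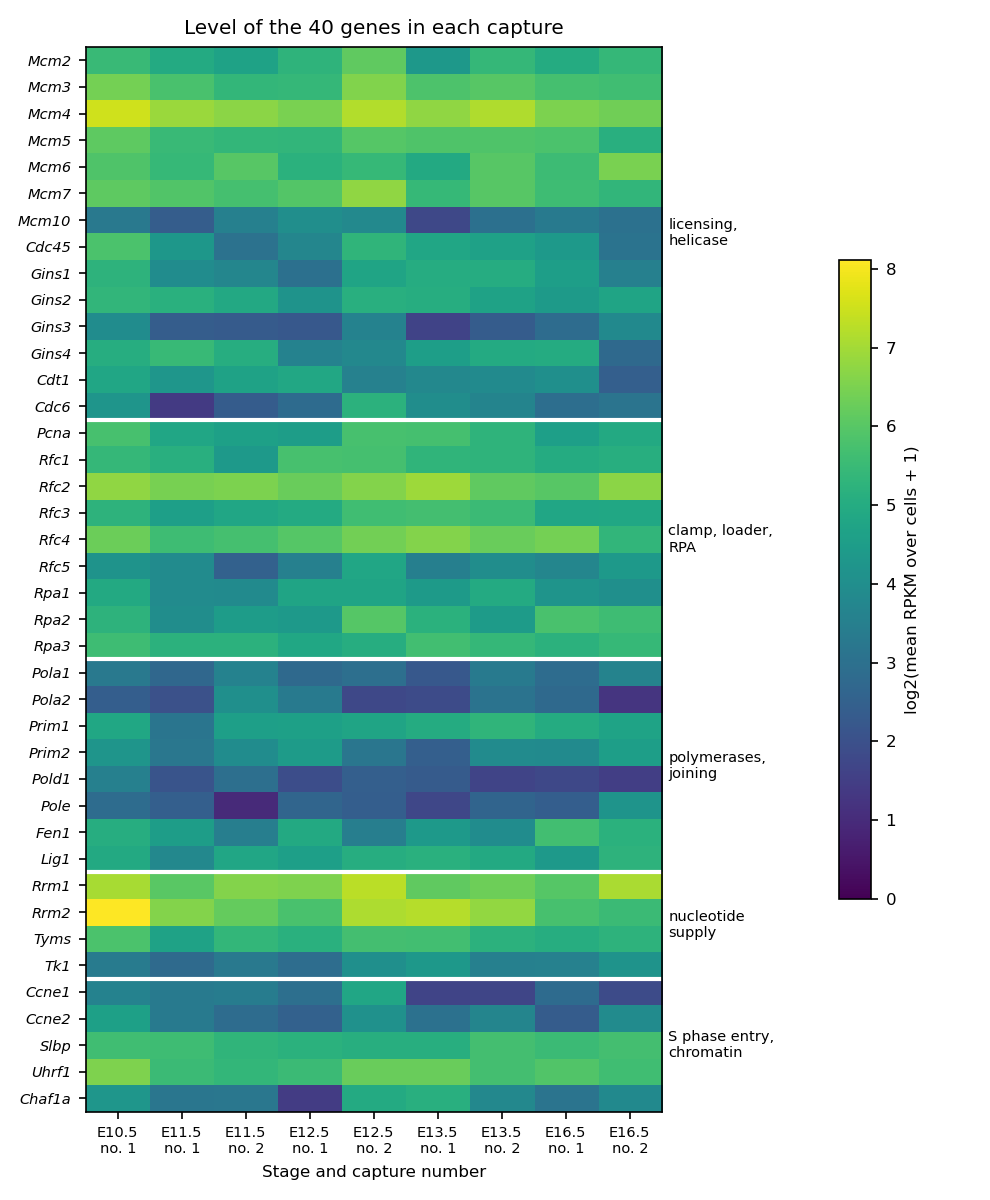
Colour gives log2(mean RPKM over cells + 1) of each of the 40 genes (rows, by role) in the 9 captures (columns, by stage). Rrm2 at E10.5 (276 RPKM) is the brightest cell, Mcm4, Rfc2 and Rrm1 are bright in every capture, and Pola2, Pold1 and Pole are dark in most captures.

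The comparison of E11.5 with E10.5 covers the first days of the gonad. In 35 of the 40 genes both E11.5 captures lay below the E10.5 capture, against 30.7% of all 12313 genes tested, and no gene had both above it, against 38.7%. The log2 difference had a median of -0.70 over the 40 and of 0.07 over all genes. It was negative for 38 genes and positive for 2, against 54.3% of all genes positive. By role, it was negative for 13 of 14 licensing and helicase genes, 9 of 9 clamp, loader and Rpa genes, 7 of 8 polymerase, primase and joining genes, 4 of 4 nucleotide supply genes and 5 of 5 entry and chromatin genes. In limma, 0 of the 40 passed an adjusted p of 0.05, against 0.39% of all genes, 47 of them higher and 1 lower. At an unadjusted p under 0.05, 4 of the 40 were lower, against 1.63% of all genes, and 0 were higher, against 4.76%.

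The largest differences of E11.5 from E10.5 were those of Cdc6 (-2.35 ± 0.89, SE, adjusted p = 0.615 in limma), Cdc45 (-2.14 ± 0.78, adjusted p = 0.599) and Rrm2 (-1.71 ± 0.52, adjusted p = 0.380). Pola2, a subunit of the polymerase alpha complex, and Gins4 were the genes with a positive difference, at 0.62 ± 1.07 and 0.20 ± 0.76. Pola2 turned to -0.40 without the second E11.5 capture, and Gins4 to -0.0070 without the first and to -0.39 with log2 values averaged over cells. With log2 values averaged over cells in place of RPKM, Rrm2 passed (-3.67, adjusted p = 0.0255, range over 15 alternatives 0.0255 to 1), and of all genes 10 were then called higher and 82 lower. Uhrf1 is the fourth gene lower at an unadjusted p under 0.05. Labelled depth and the tag in the cell names differ between these stages, and more genes were detected per cell at E10.5 (median 6503) than in either E11.5 capture (4960 and 5668). With germ cell-like, mesonephric-like and endothelial-like cells left out, the median difference of the 40 genes was -0.72.

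Other lists of cell cycle genes were compared in the same fit. Of all genes 54.3% had a positive difference. All 30 G2 and mitosis genes had a negative difference, with a median of -0.92. In limma 0 of them passed, against 0.39% of all genes (Ccnb2 -1.67 ± 0.52 and Cenpa -1.50 ± 0.56, adjusted p = 0.406 and 0.614). At an unadjusted p under 0.05, 6 of them were lower, against 1.63% of all genes. Of 41 other replication genes 34 were negative, with a median of -0.73 (Dck -1.41 ± 0.63, Pold2 -1.15 ± 0.53), and of 16 S phase repair genes 14 were negative, with a median of -0.61 (Rad51ap1 -1.94 ± 0.85, Eme1 -1.24 ± 0.70). None of these passed the limma test, and 1 of each list was lower at an unadjusted p under 0.05, against 1.63% of all genes. The 22 E2F and Rb pathway genes were split into 10 positive and 12 negative, with a median of -0.04 (Ccnd1 -0.98 ± 0.65, E2f8 -1.27 ± 0.85). None of them was at an unadjusted p under 0.05, against 1.63% of all genes lower and 4.76% higher. Of 5 CDK inhibitors tested 4 were positive, with a median of 0.25, and 0 passed in limma. At an unadjusted p under 0.05, 1 inhibitor was higher, against 4.76% of all genes. That gene is Cdkn1a (3.10 ± 0.83), which was detected in 8.84% of all cells.

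E13.5 and E10.5 have the same labelled depth. Both E13.5 captures lay below E10.5 for 27 of the 40 genes, against 31.1% of all genes, and both above for 4, against 38.3%. The median log2 difference was -0.43, against 0.08 over all genes, and all 14 licensing and helicase genes were negative. Of the 40 genes 33 were negative and 7 positive, against 54.3% of all genes positive. In limma 0 of 40 passed the adjusted threshold, against 1.06% of all genes, and at an unadjusted p under 0.05, 2 of 40 were lower, against 2.91%, and 0 higher, against 6.24%. The largest differences were those of Gins3 (-1.965 ± 0.80, adjusted p = 0.445), Ccne1 (-1.94 ± 0.83, adjusted p = 0.495) and Pold1 (-1.55 ± 0.78, adjusted p = 0.617). Tk1, Rfc3 and Prim1 had the largest positive values, 0.57 ± 0.70, 0.36 ± 0.47 and 0.30 ± 0.60, and all 3 turned negative when log2 values were averaged over cells. This comparison and the one before share the E10.5 capture.

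Between E12.5 and E11.5, at equal labelled depth, 30 of the 40 genes were higher at E12.5, against 49.1% of all genes. The median log2 difference was 0.42, against -0.01 over all genes. Both E12.5 captures lay above both E11.5 captures for 10 of the 40 genes, against 18.6% of all genes, and below for 4, against 19.4%. By the limma test, 0 of 40 and 0% of all genes passed the adjusted threshold. At an unadjusted p under 0.05, 2 of the 40 were higher, against 3.92% of all genes, and 1 lower, against 3.88%. Cdc6 had the largest positive difference (2.15 ± 0.72, adjusted p = 0.523), followed by Rfc1 (0.97 ± 0.38, adjusted p = 0.587) and Mcm10 (0.96 ± 0.62), and Gins4 the largest negative one (-1.56 ± 0.62, adjusted p = 0.590), followed by Pola2 (-0.49 ± 0.87) and Mcm6 (-0.41 ± 0.46). Pola2 turned to 0.52 without the second E11.5 capture and to 0.28 without the second E12.5 capture.

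That median rests on 1 capture. Without the second E12.5 capture it was 0.08, and without the first it was 0.83. The 12 germ cell-like cells of the second E12.5 capture had a median score of 3.14, and its 21 other somatic cells had 3.26, against 1.86 in the 25 other somatic cells of the first E12.5 capture. With germ cell-like, mesonephric-like and endothelial-like cells left out of all captures, the median difference was 0.40. The median score of the G2 and mitosis genes was 2.53 in the second E12.5 capture and 1.07 in the first. What else differs between these captures was not tested.

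**Figure D4:**
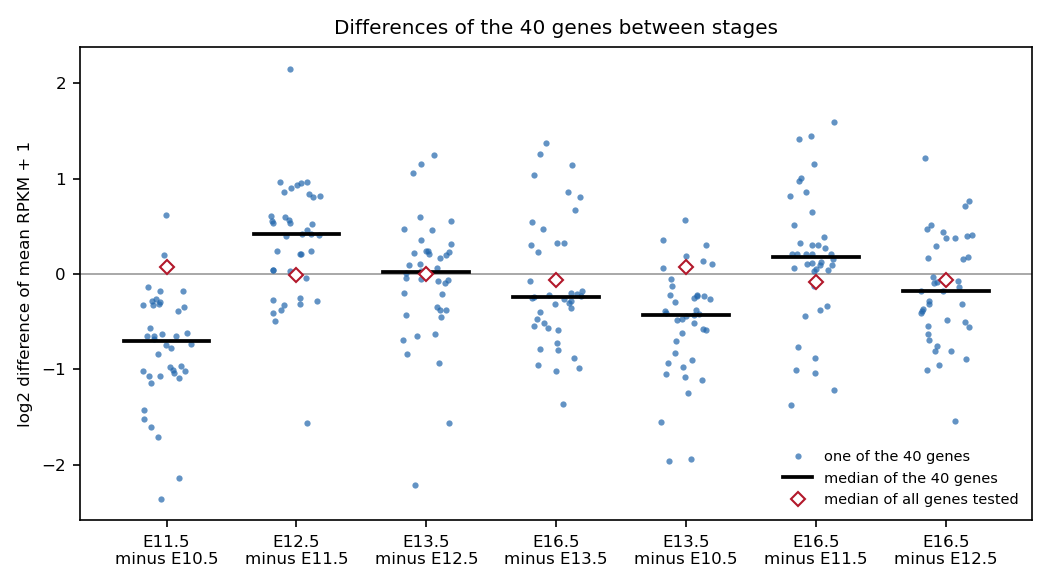
Points are the 40 genes, with the log2 difference of mean RPKM + 1 between stages on the vertical axis. The black line is their median and the open diamond the median of all genes tested; the medians of the 40 genes are -0.70 for E11.5 minus E10.5 and 0.42 for E12.5 minus E11.5, against 0.07 and -0.01 for all genes.

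Between the remaining pairs of stages the medians of the 40 genes lay between -0.24 and 0.18. Labelled depth differs between E13.5 and E12.5 and between E16.5 and E13.5, so depth and stage cannot be told apart in those pairs. Between E13.5 and E12.5, 21 genes were higher and 19 lower at E13.5, against 50.3% of all genes higher. The median was 0.02, or 0.36 without the second E12.5 capture and -0.24 without the first. Both E13.5 captures lay above both E12.5 captures for 4 genes (16.7% of all genes) and below for 4 (15.5%). After adjustment in limma, 0 of 40 and 0% of all genes passed the adjusted threshold, with 2 of 40 lower (1.9% of all genes) and 0 higher (2.67%) at an unadjusted p under 0.05. Ccne1 was lowest relative to E12.5 (-2.21 ± 0.68, adjusted p = 0.945), then Mcm10 (-1.56 ± 0.62) and Gins3 (-0.93 ± 0.65), and Chaf1a, a subunit of the chromatin assembly factor, Gins1 and Gins4 had the largest positive values (1.25 ± 0.91, 1.15 ± 0.59 and 1.06 ± 0.62). Chaf1a turned to -0.50 without the first E12.5 capture.

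Between E16.5 and E13.5, which differ in labelled depth, 27 of 40 genes were lower at E16.5 and 13 higher, against 46.2% of all genes higher. The median was -0.24, against -0.06 over all genes. Both E16.5 captures lay below both E13.5 captures for 12 genes, against 21.6% of all genes, and above for 5, against 17.6%. In limma 0 of 40 passed the adjusted threshold, against 0.0893% of all genes, and 1 was higher (4.13% of all genes) and 1 lower (4.34%) at an unadjusted p under 0.05. Those are Fen1 (1.25 ± 0.56, adjusted p = 0.578) and Rrm2 (-1.37 ± 0.42, adjusted p = 0.361). For Rrm2, both E16.5 captures (53.1 and 44.9 RPKM) lay below both E13.5 captures (146 and 111.2 RPKM). For Fen1, 49.6 and 35.1 RPKM at E16.5 lay above 20.05 and 14.3 RPKM at E13.5. Gins3 (1.37 ± 0.65), Pole (1.15 ± 0.76), Cdc45 (-1.02 ± 0.64) and Gins1 (-0.99 ± 0.59) complete the largest values, of which Cdc45 turned to 0.12 with all cells kept.

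At equal labelled depth E16.5 differed from E12.5 by a median of -0.18, against -0.06 over all genes, with 26 genes lower. Captures did not overlap for 8 genes below (21.7% of all genes) and 4 above (18.3%). By the limma test, 0 of 40 passed, against 0.357% of all genes, and 2 of 40, Ccne1 and Mcm7, were lower (6.07% of all genes) and 0 higher (6.09%) at an unadjusted p under 0.05. Ccne1 (-1.54 ± 0.68, adjusted p = 0.385), Cdc6 (-1.002 ± 0.72) and Cdt1 (-0.96 ± 0.61) had the lowest values, and Fen1 (1.21 ± 0.56, adjusted p = 0.412), Pole (0.77 ± 0.76) and Mcm6 (0.71 ± 0.46) the highest. Cdc6 turned to 0.17 without the second E12.5 capture and Pole to -0.12 without the second E16.5 capture. The median was 0.19 with the second E12.5 capture left out and -0.55 with the first left out.

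E16.5 was higher than E11.5 for 30 of 40 genes, against 45.4% of all genes. The median was 0.18, against -0.08 over all genes. Captures did not overlap for 9 genes above (19.9% of all genes) and 8 below (24.6%). After adjustment in limma, 0 of 40 passed, against 1.52% of all genes, and 2 were higher (6.42%) and 1 lower (6.52%) at an unadjusted p under 0.05. Rpa2, a subunit of the single-strand binding complex, had 53.7 and 47.1 RPKM at E16.5, against 14.8 and 21.4 RPKM at E11.5 (1.44 ± 0.52, adjusted p = 0.241). Fen1 differed by 1.42 ± 0.56 (adjusted p = 0.290) and Pole by 1.59 ± 0.76 (adjusted p = 0.415). Gins4 (-1.38 ± 0.62, adjusted p = 0.375), Cdt1 (-1.21 ± 0.61) and Pola2 (-1.04 ± 0.87) had negative differences.

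One CDK inhibitor passed the test while the 40 genes did not. Cdkn1c, which encodes an inhibitor of the cyclin E and cyclin A kinases, had 24.9 and 24.7 RPKM at E16.5, against 367 and 440 RPKM at E11.5. It fell by 3.96 on the log2 scale (SE 0.36, adjusted p = 0.000813 in limma), and the call was lost in 1 of 17 alternatives, where no filter on low values gave an adjusted p of 0.0522. Cdkn1c also fell by 2.14 at E16.5 relative to E12.5 (124 and 102.4 RPKM there; adjusted p = 0.0308) and by 2.66 relative to E13.5 (112.9 and 232 RPKM there; adjusted p = 0.0167). The E12.5 call was lost when either capture of E11.5, E12.5 or E16.5 was left out (adjusted p from 0.0549 to 0.203). The E13.5 call was lost without either capture of E12.5 or E16.5 and without the second of E11.5 or of E13.5 (adjusted p from 0.0511 to 0.195). Both calls were also lost with no filter on low values (adjusted p = 0.206 and 0.217) and with limma run without trend and robust settings (0.127 and 0.172). E16.5 and E13.5 differ in labelled depth. The number of Sertoli-like cells, which had less Cdkn1c at E13.5 and E16.5, was 18 among 31 cells and 15 among 34 at E16.5, 18 and 10 among 56 each at E13.5, and 4 among 30 and 4 among 37 at E12.5. In other somatic cells alone, Cdkn1c had 42.2 and 28.5 RPKM at E16.5, against 100.4 and 273 RPKM at E13.5, 141.5 and 112.9 RPKM at E12.5 and 376 and 429 RPKM at E11.5. There 0 of 5 CDK inhibitors passed in limma for E16.5 minus E12.5 or for E16.5 minus E13.5, with 2 and 1 lower at an unadjusted p under 0.05 in that order (7.1% and 5.98% of all genes). No other gene of the 5 lists passed in a comparison of stages in limma. Between E12.5 and E11.5, 28 of 30 G2 and mitosis genes were positive (median 0.82), against 49.1% of all genes. Of the 30 genes 7 were higher at an unadjusted p under 0.05 in limma, against 3.92% of all genes. Between E16.5 and E11.5, 27 of 30 were positive (median 0.76), against 45.4% of all genes. At that threshold 5 were higher, against 6.42% of all genes. The E12.5 captures differed, with median G2 and mitosis scores of 1.07 in the first and 2.53 in the second. In the second E12.5 capture that median was 4.27 in germ cell-like cells and 2.13 in other somatic cells.

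Cells were grouped by Ward clustering of 83 marker genes into 8 clusters. A cluster led by Sertoli markers (among them Cst12, Serpina5, Ptgds and Rhox8) held 70 cells, and the other somatic class held 169 coelomic epithelium and early progenitor-like cells and 126 interstitial-like cells. The interstitial-like cluster has 1 interstitial marker, Lum, and 1 smooth muscle marker, Acta2, among its 10 leading genes. The coelomic epithelium and early progenitor-like cluster has 2 of its own markers, Upk3b and Ecm1, among its 10. With 10 clusters it split into 52, 83 and 34 cells, and the 34 could not be named by markers. At least 30 of the 40 genes were found in 18 of 70 Sertoli-like cells, in 39 of 169 coelomic epithelium and early progenitor-like cells and in 22 of 126 interstitial-like cells. These counts pool captures whose scores differ: of the 39, 23 came from the 50 such cells of the E10.5 capture (46%), and the share in the other captures with this class was 5.56% to 33.3%. The 8 Leydig-like cells had scores from 0.72 to 3.77 with a median of 1.52, the 14 germ cell-like cells (clusters of 13 cells and of 1 cell) a median of 2.84, the 6 mesonephric-like cells, 5 of them from E10.5, 3.86 and the 3 endothelial-like cells 0.88.

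Within captures the Sertoli-like cells had no fixed place relative to the other somatic cells. Their median score was 3.30 (18 cells) in the first E13.5 capture, against 2.41 (32 cells) in other somatic cells, 1.65 (10 cells) against 2.37 (45 cells) in the second E13.5 capture, 1.92 (18 cells) against 2.31 (12 cells) in the first E16.5 capture, and 2.91 (15 cells) against 1.41 (16 cells) in the second E16.5 capture. The Sertoli-like median was higher in 2 of the 4 captures and lower in 2.

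**Figure D5:**
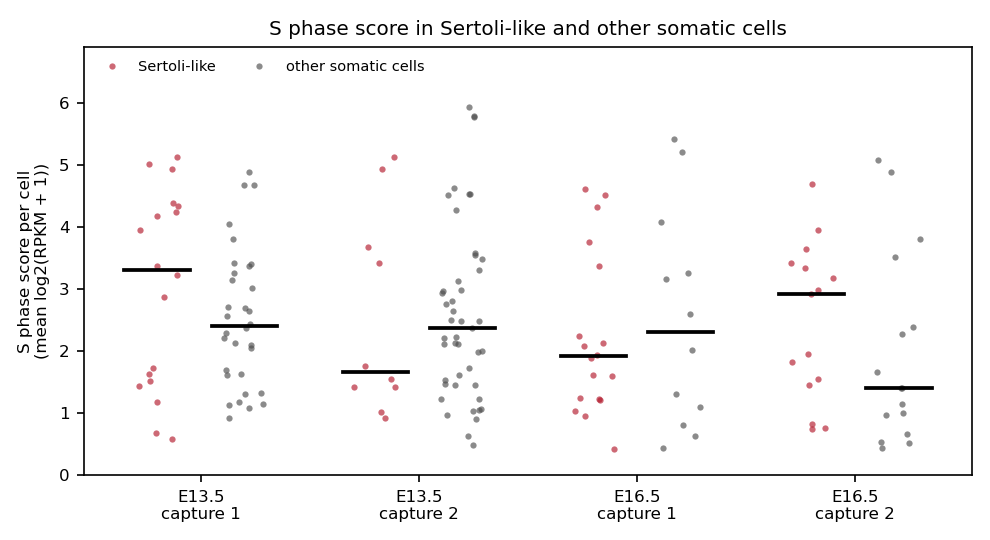
Points are single cells of the E13.5 and E16.5 captures, Sertoli-like cells on the left of each pair and other somatic cells on the right, with the S phase score on the vertical axis and the median as a line. Sertoli-like medians are 3.30, 1.65, 1.92 and 2.91, against 2.41, 2.37, 2.31 and 1.41 in other somatic cells.

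In the gene-by-gene fit, blocked by capture over those 4 captures, 17 of the 40 genes were higher and 23 lower in Sertoli-like cells. Of all 11529 genes 47.9% were higher. The median log2 difference of the 40 genes was -0.05, equal to the median of all genes to 2 digits. That median was 0.15 with log2 values averaged over cells, -0.40 with cells gated on Amh and Dhh and -0.45 with classes of at least 3 cells, so neither its direction nor its size held. In limma 0 of 40 passed, against 5.35% of all genes. At an unadjusted p under 0.05, 1 was higher (9.16% of all genes) and 1 lower (10.9%). Fen1 had 31.3, 35.8, 58.6 and 48.5 RPKM in Sertoli-like cells, against 16.9, 9.80, 40.2 and 25.7 RPKM in other somatic cells of the same captures, the E13.5 pair before the E16.5 pair (1.01 ± 0.38, adjusted p = 0.168). Gins3 had 0.617, 3.93, 2.56 and 0.399 RPKM in Sertoli-like cells, against 3.28, 4.24, 12.4 and 24.8 RPKM in other somatic cells (-1.90 ± 0.75, adjusted p = 0.187).

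Fen1 was higher and Gins3 lower in Sertoli-like cells of all 4 captures. Each call depended on 1 setting: Fen1 passed with log2 values averaged over cells (adjusted p = 0.0445, range over 17 alternatives 0.0445 to 0.680), and Gins3 with classes of at least 3 cells (adjusted p = 0.04999, range over 17 alternatives 0.04999 to 0.493). Ccne1 (-1.44 ± 0.84) and Ccne2 (-0.94 ± 0.66) were the next lowest, and Cdt1 (1.01 ± 0.73) and Chaf1a (0.76 ± 0.67) the next highest. Cdt1 turned to -0.46 with classes of at least 3 cells and Chaf1a to -0.047 without the second E16.5 capture. Cdkn1c had 74.7, 59.5, 5.35 and 5.13 RPKM in Sertoli-like cells of the 4 captures, against 100.4, 273, 42.2 and 28.5 RPKM in other somatic cells. Cdkn1c was lower by 1.91 on the log2 scale in Sertoli-like than in other somatic cells (SE 0.42, adjusted p = 0.0282 in limma), and lower in each capture. E2f6, a repressor of the E2F family, had 36.2, 31.1, 60.5 and 22.04 RPKM in Sertoli-like cells, against 14.1, 8.62, 18.4 and 4.22 RPKM in other somatic cells. It was higher by 1.71 in Sertoli-like cells (SE 0.43, adjusted p = 0.0453 in limma). The Cdkn1c call was lost in 5 of 17 alternatives, among them after removal of 1 capture at a time for 3 captures (the later-numbered E13.5 one and both E16.5 ones, adjusted p from 0.0766 to 0.167), and the E2f6 call in 8 of 17, among them after removal of any of the 4 captures (adjusted p from 0.0957 to 0.151).

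Differences between stages within a class were estimated between E16.5 and E13.5, a comparison added after seeing the data because the E12.5 captures hold 4 Sertoli-like cells each. Labelled depth differs between these stages, so depth and stage cannot be told apart in either class. In Sertoli-like cells 20 of 39 genes tested were higher at E16.5 and 19 lower, against 49.2% of all 9929 genes higher. The median was 0.06, against -0.02 over all genes. The median turned to -0.30 both with log2 values averaged over cells and without the second E13.5 capture. By the limma test, 0 of 39 and 0% of all genes passed, with 2 lower (3.83% of all genes) and 0 higher (3.18%) at an unadjusted p under 0.05. Rrm2 had 45.6 and 50.1 RPKM in Sertoli-like cells at E16.5, against 156 and 112.6 RPKM at E13.5 (-1.45 ± 0.49, adjusted p = 0.662), and Cdc45 had 17.02 and 4.18 RPKM against 73.7 and 18.8 RPKM (-1.99 ± 0.86, adjusted p = 0.690). Ccne2 (-1.73 ± 0.94), Mcm6 (1.12 ± 0.64), Pold1 (1.01 ± 0.999) and Prim2 (0.95 ± 0.76) had the other large values.

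In other somatic cells the same comparison gave 21 genes higher and 19 lower, against 40.7% of all 11155 genes higher. The median was 0.04, against -0.21 over all genes. The median turned to -0.38 with log2 values averaged over cells, -0.15 with cells gated on Amh and Dhh, -0.38 without the first E13.5 capture and -0.24 without the first E16.5 capture. After adjustment in limma, 0 of 40 and 0% of all genes passed, with 1 higher (2.2%) and 4 lower (5.98%) at an unadjusted p under 0.05. Rrm2 had 68.9 and 48.3 RPKM at E16.5, against 148 and 113.4 RPKM at E13.5, so that both E16.5 captures were below both E13.5 captures in either class. Cdt1 had 4.72 and 0.142 RPKM at E16.5, against 12.9 and 15.1 RPKM at E13.5 (-2.55 ± 0.92, adjusted p = 0.552 in limma). The 0.142 RPKM is a mean over 16 cells and lies under the 1 RPKM used for detection. With 1 capture left out, the Cdt1 difference ran from -3.71 to -1.39. Next lowest were Chaf1a (-2.44 ± 1.09) and Pold1 (-1.85 ± 0.87). Gins3 (1.97 ± 0.84), Mcm10 (1.46 ± 0.80) and Fen1 (1.26 ± 0.66) were the highest.

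The difference between the classes in that change was tested directly. Its median over the 40 genes was 0.10 (from -0.21 without the second E16.5 capture to 0.75 without the first E13.5 capture), against 0.17 over all genes, and in limma 0 of 40 and 0% of all genes passed, with 2 of 40 higher (3.88%) and 0 lower (2.01%) at an unadjusted p under 0.05. The largest values were those of Cdt1 (3.01 ± 0.95) and Pold1 (2.86 ± 0.85), both at an adjusted p of 0.784, then Chaf1a (2.39 ± 1.14), Cdc45 (-2.49 ± 1.45), Gins3 (-2.31 ± 1.24) and Ccne2 (-2.21 ± 0.95). The Cdt1 value draws on the mean of 0.142 RPKM in other somatic cells, and ran from 2.32 to 3.70 with 1 capture left out. For the G2 and mitosis genes, E16.5 minus E13.5 was positive for 29 of 30 in Sertoli-like cells (median 1.09) and for 18 of 30 in other somatic cells (median 0.29). The class difference was positive for 28 of 30 (median 0.84). Of all genes, 49.2%, 40.7% and 56.3% were positive in that order. In limma 0 of the 30 genes passed in each comparison. At an unadjusted p under 0.05, 3, 0 and 2 of 30 were higher in that order and 0 lower. The shares of all genes higher were 3.18%, 2.2% and 3.88%.

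Relative to E12.5, other somatic cells at E16.5 had 25 of 40 genes lower, with a median of -0.17 against -0.20 over all genes. That median was 0.19 without the second E12.5 capture and -0.55 without the first. By the limma test, 0 of 40 passed, against 0.0179% of all genes, and 3 were lower (7.1%) and 0 higher (3.95%) at an unadjusted p under 0.05. Cdt1 had 4.72 and 0.142 RPKM at E16.5, against 33.4 and 13.9 RPKM at E12.5 (-3.15 ± 0.92, adjusted p = 0.248 in limma). The 0.142 RPKM is a mean over 16 cells, and the Cdt1 difference ran from -4.31 to -1.98 with 1 capture left out. Mcm7 had 29.3 and 36.6 RPKM, against 63.8 and 127 RPKM (-1.43 on the log2 scale, adjusted p = 0.327 in limma). Averaged over cells as log2 values, Mcm7 passed (-2.73, adjusted p = 0.0456, range over 17 alternatives 0.0456 to 0.755). Rpa1 (-1.65 ± 0.58, adjusted p = 0.332) and Pold1 (-1.59 ± 0.87) were the next lowest, and Fen1 (1.06 ± 0.66), Rpa2 (0.91 ± 0.64) and Gins3 (0.90 ± 0.84) the highest.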

How the data were processed

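Values are RPKM per gene and cell as the authors deposited them. The unit was read from the values, and for the aligner, counter and annotation nothing is given in the sources used here. GRCm38.p3 and mm10 are the builds listed, per the submitters' processing notes. Low values were whole multiples of 1 read (within 0.05) for 68.6% of the median cell, too few to recover counts, and 65.7% of values were 0. Symbols were matched to GENCODE M21 (15900 of 16459).

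Cells under 3000 detected genes were left out (3, all E16.5), and in the second E12.5 capture wells 49 and 56, nearly identical (correlation 0.998; next closest pair 0.701), were averaged. No doublet caller was run. Mean RPKM per capture, as log2(mean + 1), was fitted with limma 3.58.1 (R 4.3.3; trend, robust; 4 residual degrees of freedom for stages) on genes whose mean reached 1 RPKM in 2 or more captures, with Benjamini-Hochberg adjustment over all genes. A fold change on this scale understates the change of low genes. Sertoli-like and other somatic cells were compared with capture as a block; class means needed 5 cells, and markers were left out. Classes came from Ward clustering of 83 of 91 markers (8 clusters). Alternatives were pseudocount 0.1, no filter, averaged log2 values, scaling by median ratio, all cells, equal-depth captures alone, simpler limma, other cell types left out, 6 or 10 clusters, an Amh and Dhh gate, 3 cells, and each capture left out; thinning and E16.5 minus E13.5 in classes were added after seeing the data. Scripts were tested on simulated data.

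The members and lists were chosen with earlier results of these data known. Named are members called, the 2 highest per role, the 3 largest differences each way per comparison, the 10 genes closest to the score, and called list genes (up to 4, or up to 2 where none was called); other genes named were chosen after their values were seen.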

Additional observations from a re-analysis of the deposited data

How the results depend on the processing

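Log2 values averaged over cells moved the median difference of the 40 genes to -1.35 for E11.5 minus E10.5, -0.89 for E13.5 minus E10.5, -0.45 for E16.5 minus E13.5 (-0.30 in Sertoli-like and -0.38 in other somatic cells) and 0.15 for Sertoli-like minus other somatic cells. They also called 1 gene in 3 comparisons and turned Gins4 (-0.39 in E11.5 minus E10.5) and, in E13.5 minus E10.5, Prim1 (-0.72), Rfc3 (-0.17) and Tk1 (-0.066). Cells gated on Amh and Dhh gave medians of -0.40 (Sertoli-like minus other), -0.15 (E16.5 minus E13.5, other somatic) and 1.47 (class difference in E16.5 minus E12.5). The last comparison had no main value at 5 cells. Where a comparison had no main value, classes of at least 3 cells were the reference. Classes of at least 3 cells gave 1 gene called, a median of -0.45 and -0.46 for Cdt1 in Sertoli-like minus other somatic cells. With all cells kept, Cdc45 in E16.5 minus E13.5 was 0.12. With 1 capture left out at a time, medians ran from 0.079 to 0.83 (E12.5 minus E11.5), -0.55 to 0.19 (E16.5 minus E12.5), -0.24 to 0.36 (E13.5 minus E12.5), -0.55 to 0.19 (E16.5 minus E12.5, other somatic), -0.38 to 0.043 (E16.5 minus E13.5, other somatic), -0.30 to 0.21 (the same, Sertoli-like) and -0.21 to 0.75 (class difference). Genes that turned then were Pola2 (-1.51 to 0.52) in E12.5 minus E11.5, Cdc6 (-2.18 to 0.17) and Pole (-0.12 to 1.66) in E16.5 minus E12.5, Gins4 (-0.0070 to 0.41) and Pola2 (-0.40 to 1.64) in E11.5 minus E10.5, Chaf1a (-0.50 to 2.999) in E13.5 minus E12.5 and Chaf1a (-0.047 to 1.35) in Sertoli-like minus other somatic cells. The cause was not tested. A further 377 summary values stayed close to the main value, which for medians meant within 0.186 on the log2 scale, the spread between replicate captures. Direction was not part of that rule. The median for Sertoli-like minus other somatic cells ran from -0.20 to 0.038 with 1 capture left out. A further 1334 gene values kept their direction and their side of the threshold, while 30 gene values lost a call and 5 gained one, in the same direction. Classes were compared within captures; between stages, no paired analysis was possible because replicate numbers follow accession order. The E12.5 captures hold 4 Sertoli-like cells each, so E16.5 minus E12.5 in that class had no value at 5 cells. Captures number 2 a stage at most, which limits what the tests can call.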
